A study of Mus musculus with 6 samples.

Results

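Sites bound by SMAD1/5 were compared between mouse E14 embryonic stem cells (ESCs) grown with LIF+serum and cultures of that line grown with LIF+BMP-4. Both peak lists were taken whole, 9387 peaks from LIF+serum and 14696 from LIF+BMP-4, which make 24083 of the 24441 peaks in the 4 lists of the series. The LIF+serum cells grew in medium with 15% fetal bovine serum and 1000 U/ml LIF. The LIF+BMP-4 cells received 10 ng/ml BMP-4 in a serum-free basal medium. The labels name a commercial basal medium and N2B27 for it without saying which was used for this library. Chromatin sheared to an average of 200 to 500 bp was precipitated with an antibody described as anti-Smad1 in the labels and as recognising Smad1/5 in the series. The other lists came from epiblast stem cells derived from ESCs (ESD-EpiSCs) and given BMP-4 at 10 ng/ml for 1.5 h or 24 h. Those lists hold 358 peaks together, so only a small share of the ESC peaks could overlap one.

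Each medium was 1 library without a replicate, so every value below describes those libraries and no test was possible. Serum, BMP-4, the basal medium and the library itself cannot be told apart. The files hold peaks and not reads, so the depth behind them is unknown, and a place without a call is not a place without binding. Intervals in parentheses are exact (Clopper-Pearson) 95% binomial intervals and cover counting error over peaks only. A peak list holds no expression, so the labelled cell type was not checked against markers. All positions are mm9 and carry no gene names, because no mm9 annotation or sequence was used here. The loci of known BMP and pluripotency genes are therefore not analysed here.

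BMP ligands bind paired type I and type II serine/threonine kinase receptors. The type I receptor phosphorylates SMAD1, SMAD5 and SMAD9, which join SMAD4 and enter the nucleus to bind DNA beside other transcription factors. In mouse ESCs, LIF acts through STAT3, and BMP-4 can stand in for serum beside LIF in keeping the cells undifferentiated. The Id genes, inhibitors of differentiation, are the best known targets of BMP in these cells. Comparing a serum culture with a defined BMP-4 culture asks which SMAD1/5 sites are called under either source of signal.

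The authors' score of a peak depends on depth and control, so it was used only to rank peaks within their own list. Rank 1 is the highest score. The percentile of a peak is the share of its own list that scores lower, so that 100 is the top. By the basic count, no peak of the other list overlapped 41.2% of peaks called with LIF+serum, and 61.3% of those called with LIF+BMP-4. The remaining sites gave 5330 pairs, in which 1 peak of each medium overlapped the other and no further peak.

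Agreement between the media was concentrated at the top of both lists. In the highest decile of LIF+serum, 95.4% of peaks (93.9 to 96.7) had a LIF+BMP-4 peak, and those in pairs stood at a median percentile of 94.7 in LIF+BMP-4 (quartiles 85.0 and 98.2). In the next decile the share was 81.3% and the median percentile 80.6 (60.6 to 91.5). In the lowest decile 37.7% (34.6 to 40.9) had a partner, at a median percentile of 55.0 with quartiles of 30.6 and 74.7. Below the top decile, the place of a LIF+serum site in its own list therefore left a wide range of places in the other.

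The reverse direction had the same shape at lower shares. The highest decile of LIF+BMP-4 met a LIF+serum peak in 88.0% of cases (86.3 to 89.6), with a median LIF+serum percentile of 86.9. In the lowest decile the share was 17.9% (16.0 to 19.9) and the median percentile 42.5. Medians changed little over the lowest 4 deciles of LIF+BMP-4, between 42.5 and 47.0. Across the 5330 pairs, Spearman's rho between the percentiles was 0.46 and Pearson's r 0.39, a description over sites that share both libraries.

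**Figure D1:**
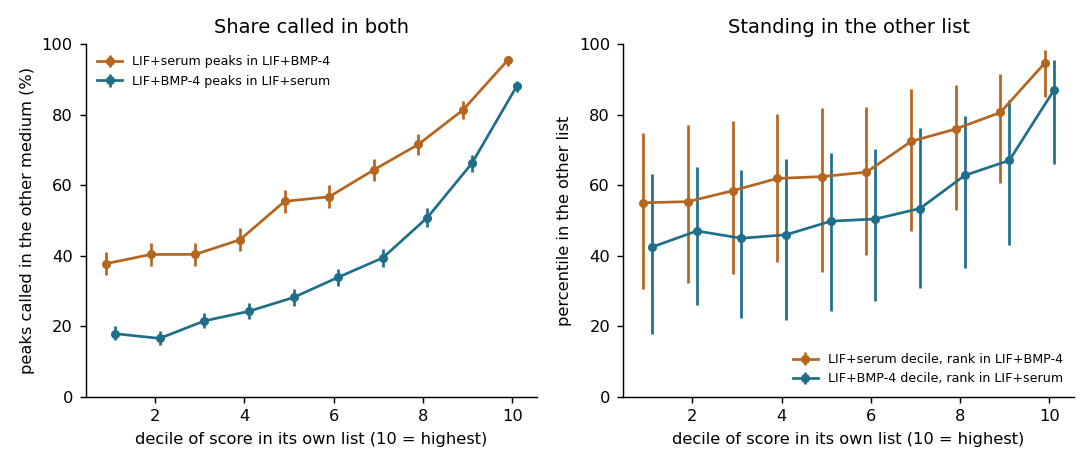
Left: share of peaks called in the other medium (%, with exact 95% interval) by decile of score in their own list, where 10 is the highest. Right: median percentile in the other list of the peaks in pairs, with bars from the lower to the upper quartile. Both lines rise most steeply at the highest decile, where 95.4% (LIF+serum) and 88.0% (LIF+BMP-4) were met.

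The strongest peaks largely occupied the same places. Of the 100 highest LIF+serum peaks, 62 overlapped 1 of the 100 highest LIF+BMP-4 peaks (62.0%, 51.7 to 71.5), 28 met a peak beyond rank 100 but within rank 1000, 8 met a lower one and 2 met none. Of the 100 highest LIF+BMP-4 peaks, 62 met a LIF+serum top-100 peak, 33 a peak between those limits, 5 a lower one and 0 none (0 of 100, with an exact upper limit of 3.62%). No top-100 peak of either medium had its partner below percentile 50 of the other list. The median rank in the other list was 72 for the LIF+serum top-100 peaks that met a peak there. It was 67.5 for the LIF+BMP-4 top 100, all of which met one.

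At the very top, 4 sites held an identical rank in both media. The lower ones were the serum calls on chromosome 2 from 157384621 to 157386589 (rank 7) and chromosome 4 from 147789264 to 147790279 (rank 9), and the others held ranks 1 and 3. All 20 of the LIF+serum top 20 were in the LIF+BMP-4 top 100, whereas 15 of the LIF+BMP-4 top 20 were in the LIF+serum top 100.

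Of the 10 highest serum calls, the 1 with the lowest partner began at 97084354 on chromosome 11 (rank 2, partner at rank 84). The call from 13984447 to 13988001 of chromosome 8 held rank 6 and met 3 LIF+BMP-4 peaks, the best at rank 21. Among the 10 highest LIF+BMP-4 peaks, those with the lowest serum partners were on chromosome 8, from 42467265 to 42467943 (rank 6, partner at rank 255), and on chromosome X, starting at 166420916 (rank 2, partner at rank 152). The other 8 partners lay within the first 16 ranks of LIF+serum.

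Top-100 sites that stood far lower in the other medium were few. The LIF+serum peak on chromosome 10 at 42480554 to 42481449 ranked 42, and its LIF+BMP-4 partner ranked 2176 of 14696. On chromosome 3 at 89745771 to 89746342 the ranks were 63 and 2683, the lowest standing of any partnered LIF+serum top-100 peak. On chromosome 12 at 81986046 to 81986967 they were 76 and 2164. Even these partners stood among the higher-scoring calls of that list, not near its end. In the other direction, the LIF+BMP-4 peak on chromosome 9 at 107492537 to 107493255 ranked 30 and its LIF+serum partner 2142 of 9387. The next lowest was on chromosome 11 at 100168849 to 100169575, with ranks of 96 and 1604. These sites were picked out after their values were seen.

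Only 2 top-100 peaks had no overlapping peak, both from LIF+serum. The peak on chromosome 12 at 79948637 to 79949640 (1004 bp) ranked 48, and the nearest LIF+BMP-4 peak was 663682 bp away. The peak on chromosome 18 at 65781878 to 65782829 (952 bp) ranked 55, and a LIF+BMP-4 peak of rank 3459 lay 1478 bp from it. The first stood alone by a wide margin, while the second had a weaker LIF+BMP-4 site beside it. With 358 ESD-EpiSC peaks in all, shares of a whole ESC list that overlap one could only be small. An ESD-EpiSC peak overlapped 8 top-100 peaks from LIF+serum and 14 from LIF+BMP-4. Over all peaks of those lists the shares were 0.735% and 0.517%. Over the 5330 pairs, taken across the joint span of both peaks, it was 49 (0.919%).

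**Figure D2:**
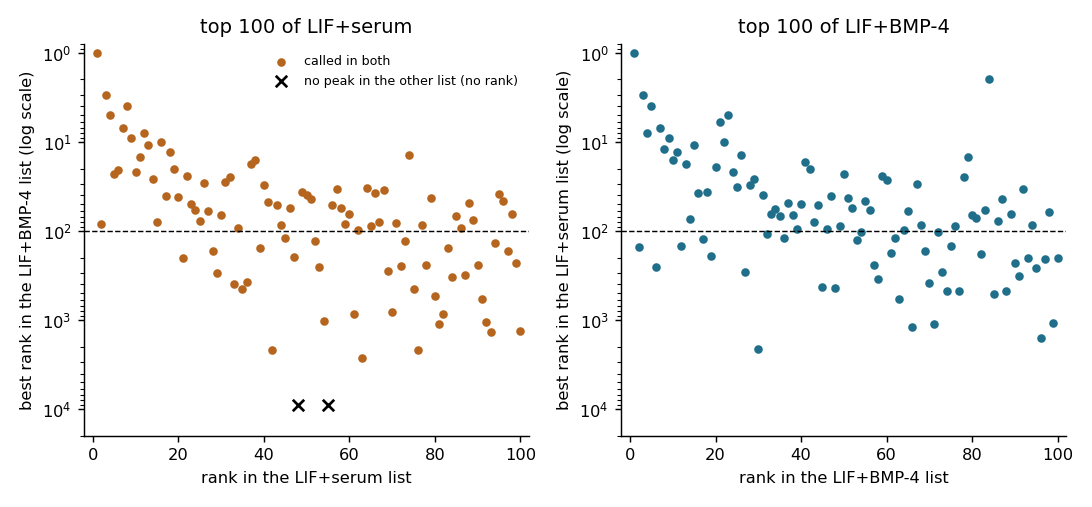
Rank of each of the 100 highest peaks in its own list (horizontal) against the best rank of an overlapping peak in the other list (vertical, log scale, rank 1 at the top). The dashed line marks rank 100, with 62 sites on or above it in each panel, and the 2 crosses mark LIF+serum peaks with no LIF+BMP-4 peak, drawn at an arbitrary height.

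Large differences in rank were found in 720 of the 5330 pairs (13.5%), a share that depends on the threshold. Both lists begin at a score of about 50.0. A score of at least 100 was held by 2165 of 9387 LIF+serum peaks and 4372 of 14696 LIF+BMP-4 peaks. A wide difference in percentile can therefore lie within a narrow range of low scores and does not measure signal. A difference of at least 50 percentile points was counted as large. By that count 510 of 5330 pairs (9.57%, 8.79 to 10.4) stood higher in LIF+BMP-4 and 210 (3.94%, 3.43 to 4.50) stood higher in LIF+serum, while 1736 (32.6%) lay within 10 points of each other. At a threshold of 30 points the shares were 22.0% toward LIF+BMP-4 and 10.6% toward LIF+serum. The median difference, LIF+BMP-4 minus LIF+serum, was 5.23 points (exact 95% interval 4.44 to 5.96).

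The excess toward LIF+BMP-4 depended on how the lists were ranked. With both sides ranked again among the 5330 pairs alone, 5.61% stood higher with LIF+BMP-4, 5.31% stood higher with LIF+serum, and the median difference was 0, a setting that fixes the mean difference at 0 by construction. With the LIF+BMP-4 list reduced to its 9387 highest peaks, which was tried after seeing the data, these became 6.56% and 6.09% of 4435 pairs. With lower scores than 100 removed from both lists and the rest ranked again, the shares were 10.6% and 3.42%. Large differences in both directions were present under each of these rankings, while the size of the imbalance moved with the setting and its cause was not tested.

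**Figure D3:**
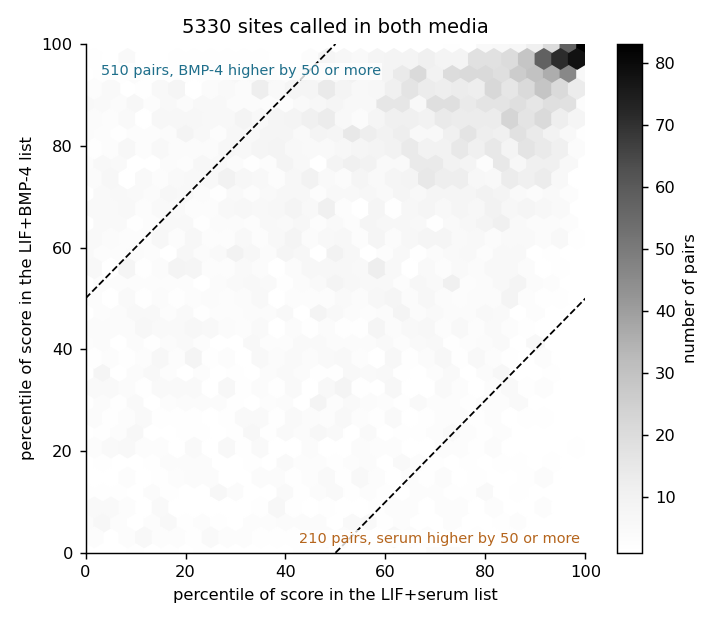
Percentile of each of the 5330 paired sites in the LIF+serum list (horizontal) and the LIF+BMP-4 list (vertical), as counts of pairs per hexagon. The dashed lines mark a difference of 50 points. The 510 pairs above the upper line stood higher in LIF+BMP-4, the 210 below the lower line stood higher in LIF+serum, and the densest hexagons sit at the top of both lists.

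Sites that stood high in LIF+BMP-4 and near the bottom of LIF+serum were named from the 1519 pairs with a percentile of at least 90 in either medium. Of these pairs 132 (8.69%) differed by at least 50 points toward LIF+BMP-4 and 36 (2.37%) toward LIF+serum. The widest difference was on chromosome 12 at 12183914 to 12184867, where the serum call held rank 9276 of 9387 and the BMP-4 call rank 472 of 14696 (95.6 points). A second site on the same chromosome, from 16022219 to 16022848, held ranks 9156 and 645 (93.1 points).

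The highest LIF+BMP-4 ranks in this group were elsewhere. From 89931470 to 89932406 of chromosome 3, the serum call held rank 8741 and the BMP-4 call rank 214. From 148193931 to 148194914 of chromosome 7 the ranks were 8551 and 259, and from 32801250 to 32802159 of chromosome 19 they were 8793 and 329. Each of these sat in the lowest decile of the serum list and in the highest decile of the BMP-4 list. The choice of the widest differences all but fixes this in advance. Chromosome 18 held 2 more, at 61787580 to 61788502 (ranks 9079 and 898) and at 75624369 to 75625210 (9177 and 1180). The remaining 3, on chromosomes 6, 2 and 5, began at 136099799, 20576142 and 39087456 and differed by 89.6 to 90.5 points.

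The opposite group stood high in LIF+serum and low in LIF+BMP-4. The widest difference was on chromosome 10 at 41521741 to 41524017, where the serum call held rank 223 and the BMP-4 call rank 13636 (BMP-4 minus serum, -90.4 points). Chromosome 4 had 1 site from 133391020 to 133391622, with ranks of 586 and 13808, and another from 145126221 to 145127712, with ranks of 446 and 12946. A chromosome 18 site from 67656889 to 67658322 held ranks 318 and 11912. The 10 sites of this group ranked between 223 and 809 in LIF+serum, and all had their LIF+BMP-4 partner at rank 11912 or lower.

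The rest of that group can be located as follows. Chromosome 17 held sites at 17761111 to 17762950 (ranks 623 and 13401) and at 48489857 to 48490517 (809 and 13372). Chromosomes 3, 1, 11 and 5 held sites that began at 32661241, 184230743, 115895748 and 37380315, with LIF+BMP-4 ranks of 13124, 13239, 13390 and 12539. None of the 20 named sites overlapped an ESD-EpiSC peak, where 0.919% of all pairs did, so that 0 of 20 lies near the background. By class, such a peak was met by 2 of 510 sites higher in LIF+BMP-4 (0.392%, 0.0475 to 1.41), by 3 of 210 higher in LIF+serum (1.43%, 0.296 to 4.12) and by 29 of 1736 within 10 points (1.67%, 1.12 to 2.39). The classes also differed in rank. Median percentiles in LIF+serum and LIF+BMP-4 were 16.2 and 83.8, 79.1 and 12.4, and 83.6 and 84.1, in that order. What part rank plays in these shares was not tested.

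Peak width went with the difference in rank. Over all pairs the LIF+BMP-4 peak had a median of 0.67 of the width of its LIF+serum partner. The ratio was 0.46 (quartiles 0.37 and 0.55) where LIF+serum stood higher, 0.67 within 10 points, and 0.83 (0.69 to 0.98) where LIF+BMP-4 stood higher. The LIF+BMP-4 peak was the wider one in 2 of 210, in 116 of 510 (22.7%) and, over all pairs, in 387 of 5330 (7.26%).

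Among the named sites, all 10 that stood higher in LIF+serum had a narrower LIF+BMP-4 peak. They belong to the class in which it was wider in only 2 of 210, so 10 of 10 lies near that background. Their serum calls were 546 to 2277 bp wide, and their BMP-4 calls 277 to 509 bp. The site on chromosome 10 is the extreme, 2277 bp against 313 bp, with midpoints 456 bp apart. Among the 10 higher in LIF+BMP-4, the LIF+BMP-4 peak was wider in 4, and the first on chromosome 12 measured 1597 bp against 954 bp. Width and rank moved together within each list as well, with a Spearman's rho over pairs of 0.45 for serum calls and 0.63 for BMP-4 calls. When scores were ranked within tertiles of width, 9.47% of pairs still stood at least 50 points higher with LIF+BMP-4, and 5.31% with LIF+serum. What part width plays in the rank difference was not tested.

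**Figure D4:**
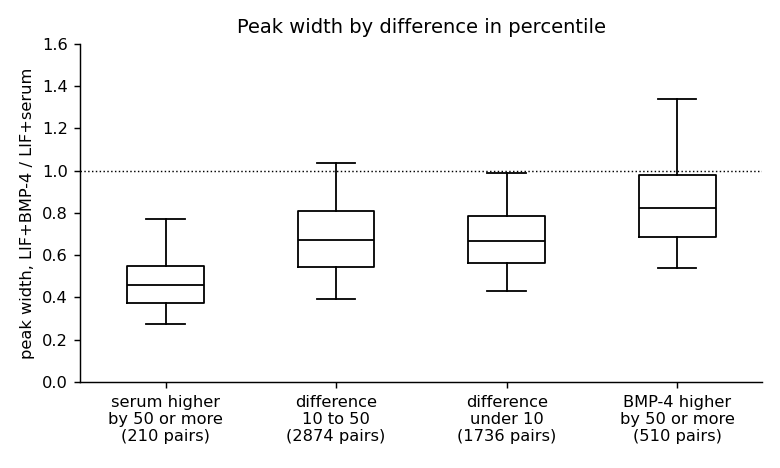
Width of the LIF+BMP-4 peak divided by that of its LIF+serum partner, for pairs grouped by difference in percentile. Boxes run from the lower to the upper quartile with the median as a line, whiskers reach the 5th and 95th percentiles, and the dotted line marks equal width. The medians are 0.46, 0.67, 0.67 and 0.83 from left to right.

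Strong peaks of 1 medium with nothing near them in the other were uncommon. A peak was counted as strong in the upper 10% of its list, and as lacking a counterpart when no peak of the other list lay within 1 kb. Over the whole serum list 38.3% had none, and over the whole BMP-4 list 58.1%. Among strong serum peaks it was 40 of 939 (4.26%, 3.06 to 5.76), and among strong BMP-4 peaks 166 of 1470 (11.3%, 9.72 to 13.0). With no counterpart within 50 kb there were 18 (1.92%) and 78 (5.31%).

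Which medium had the larger share turned with the length of the lists. With the same number of strong peaks taken from each list the shares were 4.16% and 5.86%. With the LIF+BMP-4 list reduced to its 9387 highest peaks, on both sides of the comparison, they were 7.14% for serum calls and 5.86% for BMP-4 calls. No order of the media is drawn from these shares.

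The strongest LIF+BMP-4 peaks without a counterpart were spread over several chromosomes. The highest was on chromosome 4 at 150518444 to 150519231, at rank 223, with the nearest LIF+serum peak 60739 bp away. The next was on chromosome 2 at 77250487 to 77251112, at rank 237 and 241724 bp from one. On chromosome 11 the peak at 110205773 to 110206314 ranked 266, at 86000 bp from a LIF+serum peak of rank 736. Chromosome 9 held peaks at 31013658 to 31014178 (rank 282) and at 116548150 to 116549424 (rank 286, 1275 bp wide).

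Chromosome 8 held 3 of these 10. The peak at 123623158 to 123623826 ranked 351 and was the most remote, 480579 bp from any LIF+serum peak. That at 109420753 to 109421494 ranked 291 and lay 23598 bp away, and that at 114492301 to 114493462 ranked 324 and lay 4236 bp away. The other two were on chromosome 10 at 126675264 (rank 343) and on chromosome 4 at 57706848 (rank 349), the latter only 1556 bp from a LIF+serum peak of rank 7508.

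In LIF+serum, after the top-100 peaks on chromosomes 12 and 18 given above, ranks fell off quickly. The third was on chromosome 7 at 19803624 to 19804276 (rank 134, 6727 bp from a LIF+BMP-4 peak). The fourth was on chromosome 15 at 38001497 to 38002802 (rank 257, 1991 bp away). The next were on chromosome 2 at 168650971 (rank 404), chromosome 7 at 31491155 (rank 481), chromosome 5 at 128713349 (rank 498), chromosome 15 at 27705732 (rank 501), chromosome 6 at 30250336 (rank 532) and chromosome 7 at 52132343 (rank 558). That on chromosome 5 was 267159 bp from any LIF+BMP-4 peak, and those on chromosome 15 at 27705732 and chromosome 7 at 31491155 were 106197 and 97861 bp away.

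Strong peaks without a counterpart were set beside all peaks without one for their nearness to shared peaks, and the counting intervals held the value over all. A shared peak of the same list lay within 10 kb of 3 of the 40 in LIF+serum (7.50%, 1.57 to 20.4) and of 29 of the 166 in LIF+BMP-4 (17.5%, 12.0 to 24.1). Over all peaks without a counterpart within 1 kb, the shares were 15.5% of 3596 serum calls and 14.8% of 8538 BMP-4 calls. Their median width was 948 bp in LIF+serum, against 1070.5 bp for strong peaks that overlapped a LIF+BMP-4 peak. In LIF+BMP-4 it was 739 bp against 730 bp. An ESD-EpiSC peak overlapped 1 of the 40 and 1 of the 166, against 31 of all 939 strong serum peaks (3.30%) and 32 of all 1470 strong BMP-4 peaks (2.18%). Over the whole lists the shares were 0.735% and 0.517%.

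At the scale of loci, peaks of both lists were linked where gaps were at most 10 kb, a step chosen after the data were seen. This gave 13453 loci, of which 5257 held peaks of both media, 2372 of LIF+serum only and 5824 of LIF+BMP-4 only. Of the peaks with no overlap, 36.0% of serum calls and 28.0% of BMP-4 calls lay in loci with both media. All 60 loci with 10 or more peaks held both, but they were chosen by the peaks of both lists together. That choice favours loci with both media, so nothing is drawn from it. The LIF+BMP-4 list had more peaks in 44 of these 60 loci, the LIF+serum list in 8, and the numbers were equal in 8. These counts moved with list length. With the 9387 highest LIF+BMP-4 peaks, 31 loci had 10 or more peaks, of which 11 held more LIF+BMP-4 peaks, 10 more LIF+serum peaks and 10 equal numbers. Loci of LIF+serum only then made 30.4% and those of LIF+BMP-4 only 29.1% of 10831, against 17.6% and 43.3% with the full lists.

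Loci called in a single medium were mostly single peaks. Of the 2372 LIF+serum-only loci 103 had 2 or more peaks and 1 had 3. The locus with 3 lay on chromosome 6 at 128228916 to 128236193, with a best rank of only 7310. Of the 5824 LIF+BMP-4-only loci 572 had 2 or more, 76 had 3 or more and 16 had 4 or more. These counts were not repeated with lists of equal length, so no order of the media is drawn from them. The largest LIF+BMP-4-only locus had 5 peaks within 9.89 kb of chromosome 13, at 43678451 to 43688338, the best at rank 3076. The highest-ranked of those with 4 peaks lay on chromosome 18 at 76360015 to 76372410 (best rank 1619), chromosome 8 at 59967991 to 59983653 (1644) and chromosome 2 at 166072061 to 166092957 (1774).

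The locus with the most peaks was on chromosome 6 at 37775197 to 37846525, with 13 LIF+serum and 10 LIF+BMP-4 peaks over 71.3 kb. Its highest site was the same in both media, near 37822435, where the serum call held rank 878 and the BMP-4 call rank 409. Of its LIF+serum peaks 5 had no overlap, among them a pair of neighbours at 37827530 (rank 2378) and 37829503 (rank 1413, 1762 bp wide). The 2 LIF+BMP-4 peaks without overlap ranked 8320 and 10805. The site next to the highest one, at 37824006, held ranks 3630 and 12331.

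Among loci with many more LIF+BMP-4 than LIF+serum peaks, that on chromosome 8 at 114454940 to 114498417 had 10 against 3. It holds the strong LIF+BMP-4 peak at 114492301 named above. At its left end a single LIF+serum peak of 2070 bp (rank 2994) met 2 LIF+BMP-4 peaks of rank 525 and 5904. The excess was the same on chromosome 16 at 9132270 to 9154126 and on chromosome 19 at 38116941 to 38145567, each with 9 against 2. It was also the same on chromosome 8 at 97694078 to 97734191, with 8 against 1.

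Other loci had more LIF+serum peaks, from a list that was shorter in all. On chromosome 12 at 42817618 to 42833744 there were 7 LIF+serum and 2 LIF+BMP-4 peaks, and the strongest site, at 42830638, ranked 429 and 1564. Of the other LIF+serum peaks there, the one at 42817618 ranked 2123 without overlap. Chromosome 9 at 3015102 to 3038581 also had 7 against 2, and chromosome 7 at 134355721 to 134387949 had 6 against 2. The sequence under these loci was not examined.

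The widest call of each list lay in the same stretch of chromosome X. The LIF+serum peaks at 166407545 to 166414602 (7058 bp, rank 349) and 166420840 to 166431734 (10895 bp, rank 152) met 4 and 3 LIF+BMP-4 peaks, 1 of the 4 by a single base pair. The LIF+BMP-4 peak at 166420916 to 166424182, at rank 2, covers only the left part of the wider one, and its neighbours to the right ranked 4726 and 7449. Between them the peaks at 166414607 to 166418522 and 166418986 to 166420324 held ranks 41 and 46, and their partners ranks 47 and 55. Ranks within this locus therefore compare calls of unequal extent.

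**Figure D5:**
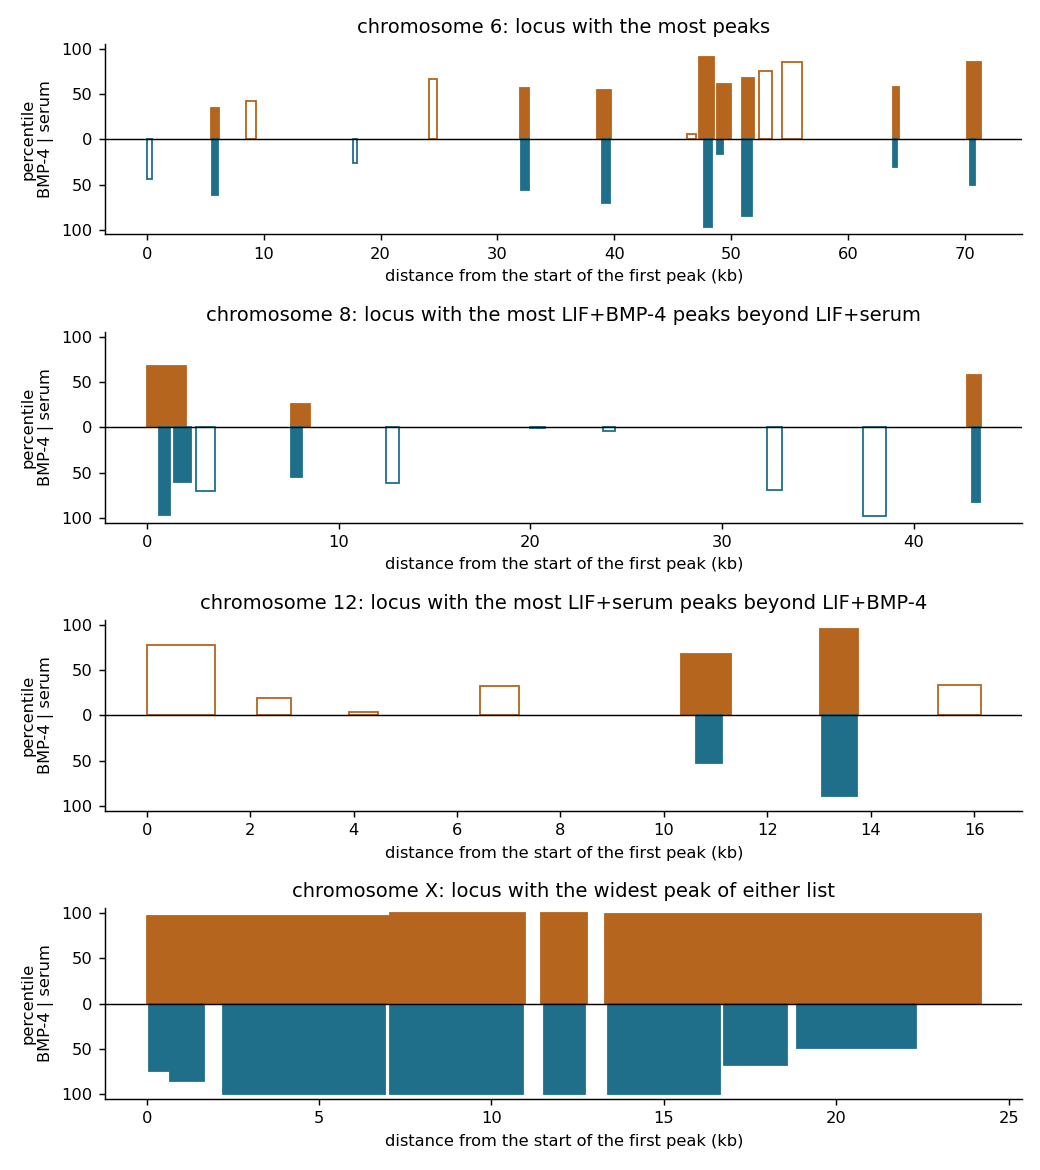
Peaks at 4 loci, by distance from the start of the first peak (kb). Bars above the line are LIF+serum peaks and bars below it LIF+BMP-4 peaks, with bar height as percentile in the list concerned and bar width as peak width. Filled bars overlap a peak of the other medium and open bars do not. The chromosome 8 locus has 10 peaks below the line and 3 above, and the chromosome 12 locus 7 above and 2 below.

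Over the whole lists, chromosome X included, a LIF+serum peak seldom met several LIF+BMP-4 peaks. Of the 5517 LIF+serum peaks with a partner, 5348 met 1, 161 met 2, 6 met 3 and 2 met 4. The 169 that met 2 or more had a median width of 1460 bp and a median percentile of 87.5, against 863 bp and 62.1 for those that met 1. Besides the wide call on chromosome X, the one that met 4 was on chromosome 8 at 23931565 to 23934212 (rank 961), over peaks of rank 8942, 6917, 3731 and 5046. The reverse occurred for 13 LIF+BMP-4 peaks, including that on chromosome 6 at 30686948 to 30689166. It ranked 45 and met LIF+serum peaks of rank 425 and 1609.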

How the data were processed

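SMAD1/5 ChIP-seq peak lists of 2 ESC libraries were compared, and the 2 ESD-EpiSC lists were used only to mark sites also called there. The input libraries were not analysed here. MACS 1.4.2, Bowtie 1.1.0, Picard and the build mm9 are named, without their steps, in the submitters' processing notes. What filters and control were used, and how many reads, is not given in the sources used. Each list was deposited by the authors with 5 columns, the last a score per peak whose scale is not given. Both lists stop at a lowest score of about 50.0.

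Scores were turned into ranks and percentiles within a list. Tied peaks share the best rank of the tie, and percentiles average over ties. Overlap meant at least 1 bp. Software was pandas 2.3.3, scipy 1.17.1, numpy 2.4.6 and matplotlib 3.10.9 under Python 3.11.15. Pairing and distance code was tested on simulated data. Positions are 1-based.

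The comparisons, lists and most settings were chosen with earlier results of these data known. Named sites follow a rule: the 10 pairs furthest apart in each direction among those with a percentile of at least 90 in either list, the 10 highest peaks, the 10 highest without a counterpart, and every top-100 peak without a partner or with one below percentile 50. Other sites, among them the top-100 peaks with the lowest partners and the loci, were picked out after their values were seen. The gene table at hand is GRCm38.p6 and was not used for mm9 positions, so gene loci, distances to transcription starts and motifs were not run, and no sequence is printed. Alternatives were a score of at least 100, stricter overlap, midpoints within 200 bp, equal list length, other top lists and thresholds, ranks within width tertiles, and removal of chromosomes X and Y and of peaks over 5 kb.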

Additional observations from a re-analysis of the deposited data

How the results depend on the processing

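No paired analysis was possible because each medium has 1 library. The settings that need an mm9 annotation or sequence were not run. A value was taken as moved when it left its 95% interval. For serum calls, the share also called with LIF+BMP-4 moved to 65.8% at a score of at least 100, 51.9% with midpoints within 200 bp and 48.5% with lists of equal length, and the reverse share to 33.0%, 33.1% and 49.5%. Pairs standing at least 50 points higher in LIF+BMP-4 became 5.61% when ranked among pairs, 10.6% at a score of at least 100 and 6.56% with equal lengths. Those higher in LIF+serum became 5.31%, 3.42% and 6.09%, and 5.31% within width tertiles. At 30 points the shares were 22.0% and 10.6%. The median difference became 0 among pairs, 7.26 at a score of at least 100, 3.54 within width tertiles and 0.431 with equal lengths. Strong peaks without a counterpart became 12.5% (LIF+serum) and 29.5% (LIF+BMP-4) at a score of at least 100, which reaches far down both lists, and 7.14% and 5.86% with equal lengths. With equal numbers the LIF+BMP-4 share was 5.86%. Loci with both media, LIF+serum only and LIF+BMP-4 only made 39.1%, 17.6% and 43.3% with gaps up to 10 kb, 35.8%, 19.0% and 45.2% up to 5 kb, 43.1%, 16.0% and 40.9% up to 20 kb, and 40.5%, 30.4% and 29.1% with equal lengths. Equal list length for ranks, strong peaks and loci and the gap settings were added after the data were seen. The cause of the moves was not tested. The shares of top-100 peaks held in common or without a partner stayed within their intervals for the top 50, the top 200, stricter overlap and removal of chromosomes X and Y and of peaks over 5 kb. The 20 named pairs kept their direction in all 90 alternative values, at sizes of 64.0 points or more. They were chosen as the widest differences, so a change of direction was hardly possible and no stability is drawn from it. Stricter overlap returned the same values, and removal of chromosomes X and Y and of peaks over 5 kb changed them little. With equal lengths only the 10 that stood higher in LIF+BMP-4 had a value. The shortened LIF+BMP-4 list no longer held the partners of the pairs higher in LIF+serum.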

Other observations

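Differences in rank at neighbouring sites were close to uncorrelated. For consecutive paired sites less than 2 kb apart (219 cases), Pearson's r between their percentile differences was -0.01 and Spearman's rho -0.05. It was 0.06 and 0.07 at 2 to 5 kb (195 cases), 0.06 and 0.06 at 5 to 20 kb (562) and 0.01 and 0.01 at 20 to 100 kb (1333). These are correlations across sites of the same libraries and are given as a description.

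Consecutive sites less than 20 kb apart that differed by at least 50 points in opposite directions occurred 3 times. These were 2 of 219 cases under 2 kb, 0 of 195 at 2 to 5 kb and 1 of 562 at 5 to 20 kb. At 20 to 100 kb there were 15 of 1333. The 3 cases are located below, and no pattern is drawn from them. On chromosome 16, the site from 35829152 to 35830183 held serum rank 825 and BMP-4 rank 10875, and 178 bp further the site from 35830362 to 35830880 held ranks 7995 and 4876. On chromosome 9, the site at 61112759 to 61114022 ranked 2251 and 13525, and 1014 bp further the site at 61115037 to 61115885 ranked 5925 and 1386. On chromosome 12, sites at 85349307 and 85362581 ranked 2459 and 13668, and 8432 and 4561.

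Chromosomes differed modestly in how much was called in both media. Peaks without overlap made 34.2% of LIF+serum peaks on chromosome 8 (30.6 to 38.0), 50.2% on chromosome 18 (44.2 to 56.1) and 54.3% of 70 peaks on chromosome X (41.9 to 66.3), against 41.2% in all. In LIF+BMP-4 they made 57.9% on chromosome 7 (54.4 to 61.3), 67.3% on chromosome 18 (62.7 to 71.7) and 72.9% of 133 peaks on chromosome X (64.5 to 80.3), against 61.3% in all. The chromosomes were picked out after their values were seen.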
